A study of Mus musculus with 3 samples.

Results

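The 10 genes described here belong to lipid storage in macrophages and were followed across a triglyceride load: the droplet proteins Hilpda, Plin2, Plin3 and G0s2, the triglyceride synthesis enzymes Gpat3, Dgat1 and Dgat2, and the lipolysis genes Pnpla2, Abhd5 and Mgll. They were taken by symbol from the platform annotation, and 10 of 10 had a probe set of their own among 19938 genes on the array. The cells were thioglycollate-elicited peritoneal macrophages of male mice with the genotype Angptl4-/- (strain C57Bl/6J), adherent and cultured for 2 days. The 3 groups were PBS for 6 h, intralipid at 0.5 mM triglyceride for 6 h, and the same intralipid exposure after 1.5 h with 2.5 µg/mL recombinant mouse ANGPTL4. Every group, the PBS control included, lacked the Angptl4 gene, so the recombinant protein was the ANGPTL4 these cultures were given. Whether the other groups had a mock pre-incubation is not given in the labels. Each group was 1 Affymetrix array of RNA pooled from 3 samples, so the spread between cultures is not known and no test was possible. "Higher" and "lower" below describe these arrays only.

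Macrophages store fatty acids as triglyceride in cytosolic droplets. Glycerol-3-phosphate acyltransferases such as GPAT3 begin the synthesis and the diacylglycerol acyltransferases DGAT1 and DGAT2 complete it, while perilipins such as PLIN2 and PLIN3 coat the droplet. Adipose triglyceride lipase, encoded by Pnpla2, starts the breakdown with its coactivator ABHD5, and HILPDA and G0S2 inhibit that lipase. Monoglyceride lipase, encoded by Mgll, cleaves the last acyl chain. Intralipid is an emulsion of triglyceride that cells use after lipoprotein lipase has freed its fatty acids, and ANGPTL4 inhibits that enzyme.

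The values are log2 expression as deposited, and a level of one gene is not set against that of another, since probes differ in brightness. The floor was the median of all named probe sets on the same array (log2 values of 4.98, 4.97 and 4.97 for PBS, intralipid and intralipid plus ANGPTL4). Of the 10 genes, 8 passed it on all 3 arrays, and G0s2 and Dgat2 lay below it on all 3. A gene is called different where 2 arrays were at least 2-fold apart and the higher one reached the floor. Angptl4 itself had a log2 value of 4.92 on each array. With no array of wild-type cells and no positions for its probes, the value does not check the genotype.

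Markers of the cells that such a culture could hold were read beside these genes, and their part in the results was not tested. All 12 measured macrophage markers passed the floor, with a summed level of 15.39, 15.47 and 15.45 on the log2 scale on the PBS, intralipid and ANGPTL4 arrays. Of these 12, the receptor genes Cd14 (9.07, 11.17 and 10.34), Msr1 (10.02, 9.36 and 10.56) and Fcgr1 (9.54, 9.07 and 8.53) were at least 2-fold apart in some comparison. Of the 7 measured adipocyte markers, which matter here because adipocytes share many droplet genes, 1 passed the floor. That gene was Lipe, at 6.22, 6.18 and 6.20, while Plin1 and Cidec, the droplet coat genes of fat cells, lay below it at 4.48 and 4.68 on every array. Fibroblast markers had 6 of 8 past the floor and a summed level of 11.21, 11.21 and 11.20, and mesothelial markers 2 of 7 with 7.52, 7.44 and 7.29. The neutrophil list had 1 of 8 past the floor and the eosinophil list 1 of 3, and B cell, T and NK cell and mast cell lists had 0 of 5, 0 of 7 and 0 of 5. In such mixed RNA, fewer cells of a type and less RNA per cell cannot be told apart.

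The letters around the start sites were read for all of these genes with a listed promoter. Hilpda, Gpat3 and Dgat1 differed most between intralipid and PBS, as the values further on show. The letters of Hilpda and Gpat3 are printed, with those of Plin2 for comparison. RefSeq promoters (build GRCm38.p6, 250 bases before to 50 bases from the start) were given for 8 of the 10 genes, and not for Dgat1 and Dgat2. For Hilpda the later of 2 listed starts is printed (chr6:29272376-29272675, plus strand), for Gpat3 chr5:100845979-100846278 on the plus strand and for Plin2 chr4:86670010-86670309 on the minus strand. The sequences run 5′ to 3′ along the gene, and capitals mark any match to a motif searched on both strands. The motifs were the hypoxia response cores ACGTG and GCGTG, the AP-1 site TGANTCA, the E-box CACGTG, the cyclic AMP element TGACGTCA, the composite C/EBP-ATF site TGATGNAAT, the sterol element TCACNCCAC, and the PPAR direct repeat (AGGTCA or AGGNCA, copied after 1 free base).
Hilpda: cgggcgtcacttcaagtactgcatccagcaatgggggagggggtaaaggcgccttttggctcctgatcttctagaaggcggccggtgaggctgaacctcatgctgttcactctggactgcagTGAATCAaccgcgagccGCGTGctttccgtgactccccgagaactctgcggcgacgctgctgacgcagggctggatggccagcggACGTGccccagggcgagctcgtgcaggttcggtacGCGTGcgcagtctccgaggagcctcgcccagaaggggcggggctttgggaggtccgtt
Gpat3: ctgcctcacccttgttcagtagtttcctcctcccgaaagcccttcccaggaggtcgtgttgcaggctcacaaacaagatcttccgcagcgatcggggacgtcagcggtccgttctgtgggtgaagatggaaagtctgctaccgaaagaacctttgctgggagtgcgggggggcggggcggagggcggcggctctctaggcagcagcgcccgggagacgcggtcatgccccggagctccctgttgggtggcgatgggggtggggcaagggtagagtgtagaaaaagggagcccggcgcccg
Plin2: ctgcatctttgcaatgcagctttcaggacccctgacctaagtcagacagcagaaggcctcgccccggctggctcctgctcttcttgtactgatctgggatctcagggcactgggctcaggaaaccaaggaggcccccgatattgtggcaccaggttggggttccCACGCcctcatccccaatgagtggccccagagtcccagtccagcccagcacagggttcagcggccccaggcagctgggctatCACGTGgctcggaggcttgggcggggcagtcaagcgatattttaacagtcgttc

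The Hilpda window held an AP-1 match at -128 to -122 from the start and 3 hypoxia cores, GCGTG at -111 to -107, ACGTG at -43 to -39 and GCGTG at -8 to -4. The window of the earlier start overlaps this one and holds the same AP-1 match and the first of these cores. Of 32817 RefSeq promoter windows, 7.81% held the AP-1 motif, 43.8% at least 1 hypoxia core and 8.93% at least 3 core matches. These shares were not matched for base content. The printed windows were 64.3% G and C for Hilpda, 64.3% for Gpat3 and 60.7% for Plin2, beside a median of 52.7% over all windows. The Plin2 window had an E-box at -4 to 2, which is also a match to ACGTG on either strand, and GCGTG on the opposite strand at -86 to -82. With 2 matches to ACGTG and 1 to GCGTG, the Plin2 window also counts among those with at least 3 core matches. The E-box was in 7.15% of all windows, and among the 10 windows of these genes the earlier Mgll window also held it, at -44 to -39. The Gpat3 window held 0 of the motifs, which says only that these letters were not in these 300 bases. The PPAR repeat, the cyclic AMP element, the C/EBP-ATF site and the sterol element matched 0 of the 10 windows of the 8 genes. Their shares over all windows were 0.0396% for the strict and 0.381% for the relaxed PPAR repeat, 1.79% for the cyclic AMP element, 0.966% for the C/EBP-ATF site and 1.24% for the sterol element. Mgll, which was 1.18-fold lower with intralipid, had 7 core matches in the window of its later start. The window of its earlier start had 4, 2 of them within the E-box. These Mgll windows were 72.3% and 70% G and C, more than the printed windows. A match is a string of letters and not a measured binding site.

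**Figure D1:**
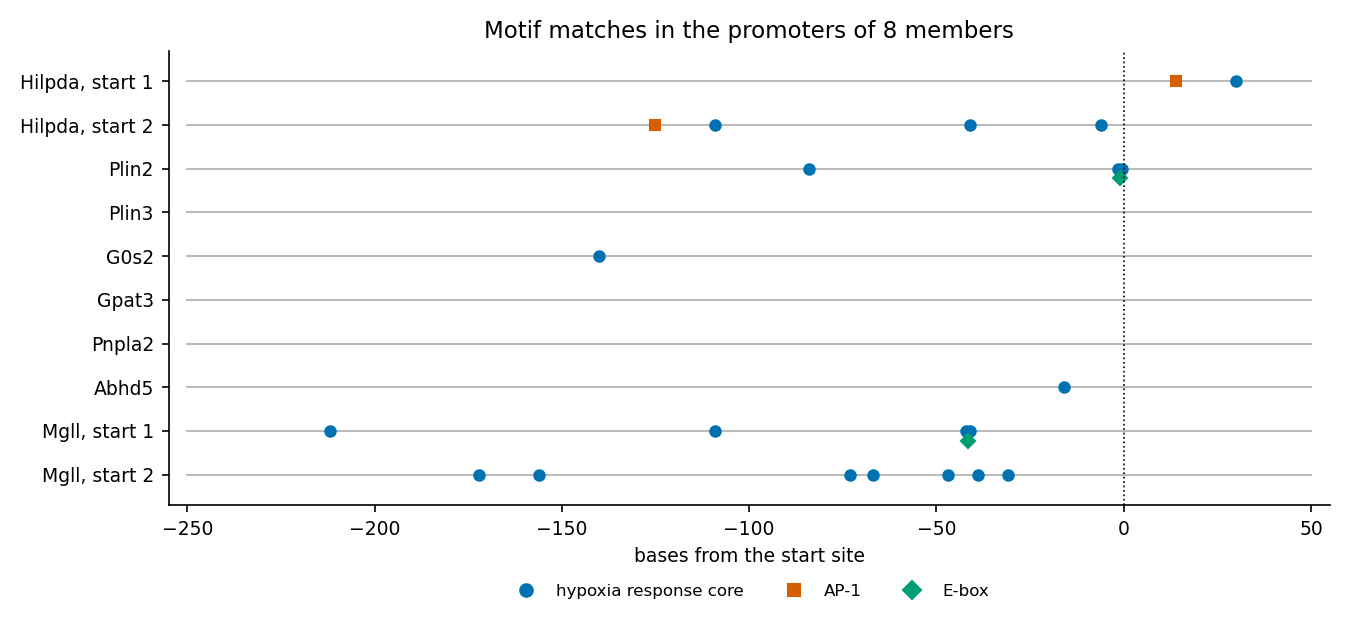
Positions of motif matches (symbols) in the 10 promoter windows of the 8 genes (rows), in bases from the start site (horizontal axis, dotted line at the start). The later Hilpda window shows 1 AP-1 match and 3 hypoxia cores, Mgll carries the most cores, and Gpat3, Plin3 and Pnpla2 show no match.

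**Figure D2:**
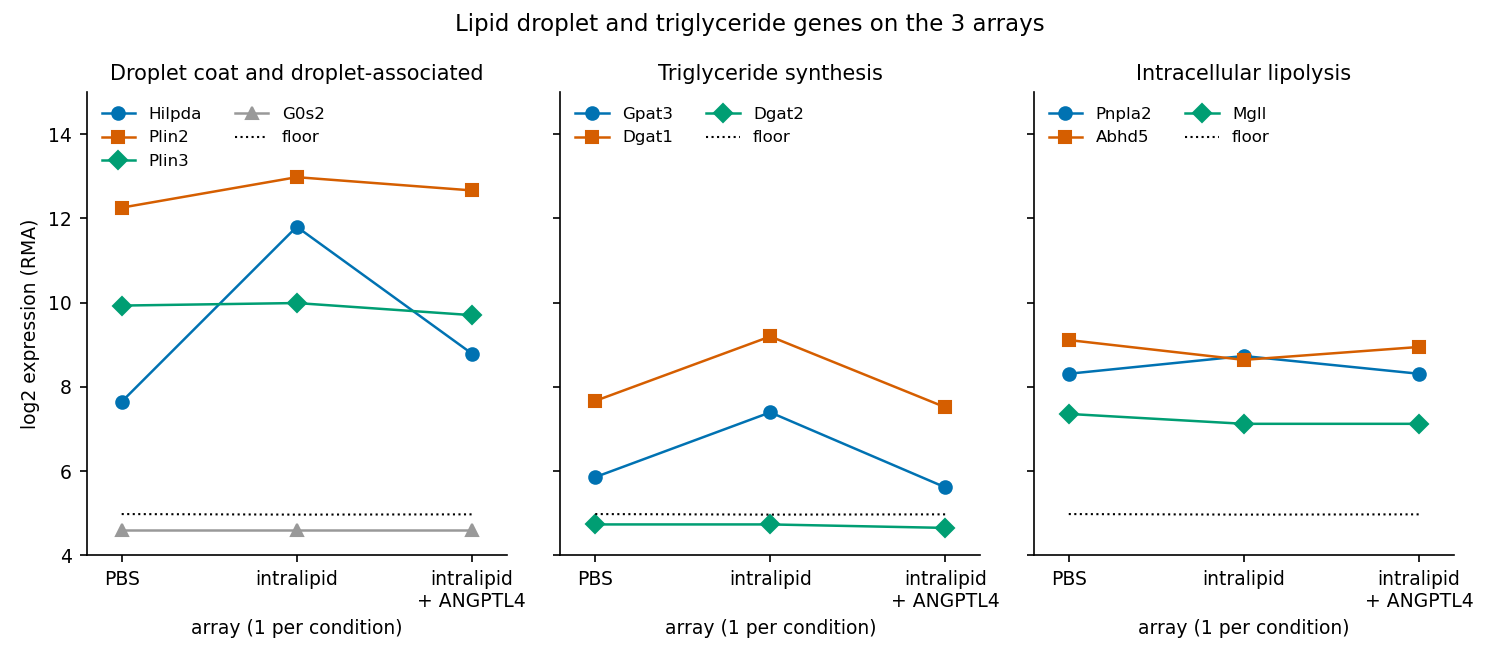
Log2 expression (vertical axis) of the 10 genes on the PBS, intralipid and intralipid plus ANGPTL4 arrays (horizontal axis), with 1 panel per role. Each point is 1 array of pooled RNA and the dotted line is the floor. Hilpda, Gpat3 and Dgat1 peak on the intralipid array, Abhd5 is lowest there, and G0s2 and Dgat2 stay below the floor.

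Among the droplet proteins, Hilpda differed far more than the perilipins. Hilpda (probe set 10536794), the lipase inhibitor that is known to be induced by fatty acids and by hypoxia, had log2 values of 7.65, 11.80 and 8.79 on the PBS, intralipid and ANGPTL4 arrays. The intralipid array was far above the other arrays, and the ANGPTL4 array lay between the other two. Intralipid stood 17.8-fold above PBS, and 3 of the 10049 genes tested in that comparison had a larger upward difference. With ANGPTL4 the value was 8.05-fold below that of intralipid alone, where 18 of 10064 genes had a more negative difference. It was still 2.21-fold above PBS, and 61 of 9995 genes had a larger upward difference there. Hilpda was the only one of the 10 genes called different between the ANGPTL4 and PBS arrays.

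Plin2 (probe set 10514221), the main droplet coat protein outside adipocytes, had log2 values of 12.25, 12.98 and 12.66 in the same order. Its arrays kept the order seen for Hilpda, within a much narrower range of 0.72 against 4.15. Intralipid was 1.65-fold above PBS, ANGPTL4 was 1.24-fold below intralipid alone, and ANGPTL4 was 1.33-fold above PBS. None of these reached the 2-fold call. The highest value of any probe set was 13.7 on each array, and whether brightness near that end narrows the differences of Plin2 was not tested. Plin3 (probe set 10452030), a perilipin that moves between cytosol and droplets, had values of 9.93, 9.99 and 9.70. Plin3 was nearly level between PBS and intralipid (1.04-fold higher) and was 1.22-fold lower with ANGPTL4 than with intralipid. G0s2 (probe set 10361246) had 4.60 on each of the 3 arrays, below the floor, so no change of this second lipase inhibitor could be read.

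Set against each other within an array, the droplet protein transcripts differed unequally on these arrays. The ratio of Hilpda to Plin2 was 10.8-fold higher with intralipid than with PBS and 6.48-fold lower with ANGPTL4 than with intralipid. The ratio of Plin2 to Plin3 was 1.58-fold higher with intralipid than with PBS, and 1.55-fold higher with ANGPTL4 than with PBS. Between the ANGPTL4 and intralipid arrays it differed by 1.02-fold.

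Of the synthesis enzymes, Gpat3 and Dgat1 passed the floor and Dgat2 lay below it. Gpat3 (probe set 10523547), the acyltransferase of the endoplasmic reticulum that makes lysophosphatidic acid, had log2 values of 5.86, 7.39 and 5.61 on the PBS, intralipid and ANGPTL4 arrays. Dgat1 (probe set 10429926), which adds the last acyl chain, had 7.67, 9.20 and 7.52. For both, the intralipid array stood apart and the ANGPTL4 array lay slightly below PBS. Gpat3 was 2.90-fold and Dgat1 2.89-fold higher with intralipid than with PBS, a difference that 120 and 122 of the 10049 genes exceeded. With ANGPTL4 against intralipid alone they were 3.44-fold and 3.21-fold lower, and against PBS 1.18-fold and 1.11-fold lower. The log2 differences of Gpat3 and Dgat1 from PBS to intralipid were 1.54 and 1.53. Dgat2 (probe set 10565775), which catalyses the same step as Dgat1 but is an unrelated protein, had 4.73, 4.73 and 4.65, below the floor on every array. Its differences are therefore not read.

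The lipolysis genes differed less, and not in the same direction. Pnpla2 (probe set 10558921), the lipase itself, had log2 values of 8.31, 8.73 and 8.31, again in the order PBS, intralipid, ANGPTL4. Its PBS and ANGPTL4 values were identical as deposited, and intralipid was 1.34-fold above both. Abhd5 (probe set 10590452), the coactivator, had 9.11, 8.64 and 8.95, with its lowest value on the intralipid array. It was 1.39-fold lower with intralipid than with PBS, 1.24-fold higher with ANGPTL4 than with intralipid, and 1.12-fold lower with ANGPTL4 than with PBS. Mgll (probe set 10539894) had 7.36, 7.12 and 7.12, so that both intralipid arrays carried 1 identical value, 1.18-fold below PBS. None of the 3 genes was called in any of the 3 comparisons.

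Within arrays, the lipase transcript was set against those of its regulators that were above the floor. The ratio of Hilpda to Pnpla2 was 13.3-fold higher with intralipid than with PBS, and with ANGPTL4 it remained 2.21-fold above PBS. The ratio of Abhd5 to Pnpla2 was 1.85-fold lower with intralipid than with PBS and 1.12-fold lower with ANGPTL4 than with PBS. Since the deposited Pnpla2 values were identical on the PBS and ANGPTL4 arrays, the ratios between those arrays only repeat the folds of Hilpda and Abhd5. The ratio of Abhd5 to Pnpla2 combines differences that were not called. These ratios describe unequal differences on these arrays, whose spread is not known, and say nothing of protein or lipase activity.

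Counted together, 3 of the 8 genes past the floor were at least 2-fold higher with intralipid than with PBS and 0 were lower, where 2.51% of all 10049 genes tested were higher and 1.32% lower. The 3 were Hilpda, Gpat3 and Dgat1. The genes were chosen with earlier results of these data known, so counts set beside the shares of all genes do not test the set. The median log2 difference of the 8 was 0.57, with 6 higher and 2 lower, and that of all genes was 0.00, with 23.5% higher, 44.4% lower and 32.1% identical. With ANGPTL4 against intralipid alone, the same 3 genes were at least 2-fold lower and 0 were higher, where 2.3% of 10064 genes were lower and 2.53% higher. The median of the 8 was -0.37, with 1 higher, 6 lower and 1 identical, and that of all genes was 0.00, with 46.3% higher, 23.0% lower and 30.6% identical. With ANGPTL4 against PBS, Hilpda was at least 2-fold higher and 0 genes were lower, where 0.85% of 9995 genes were higher and 0.04% lower. The median of the 8 was -0.16, with 2 higher, 5 lower and 1 identical, and that of all genes was 0.00, with 35.4% higher, 24.4% lower and 40.2% identical. The first 2 comparisons share the intralipid array and the first and the third share the PBS array, and the other two share the ANGPTL4 array, so they are not independent of one another. At 1.5-fold, Plin2 joined the genes higher with intralipid than with PBS, which made 4 of 8 higher and 0 lower, where 5.07% of all genes were higher, 5.57% lower and 10.6% either. At 3-fold, 1 of 8 remained, Hilpda, where 1.16% of all genes were higher, 0.199% lower and 1.36% either. For ANGPTL4 against intralipid, the count stayed at 3 lower and 0 higher at both thresholds. There 8.26% of all genes were higher, 4.95% lower and 13.2% either at 1.5-fold, and 0.586% higher, 1.01% lower and 1.6% either at 3-fold. For ANGPTL4 against PBS, Hilpda was past 1.5-fold, where 2.37% of all genes were higher, 0.53% lower and 2.9% either, and 0 of 8 were past 3-fold, where 0.25% were, all of them higher.

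**Figure D3:**
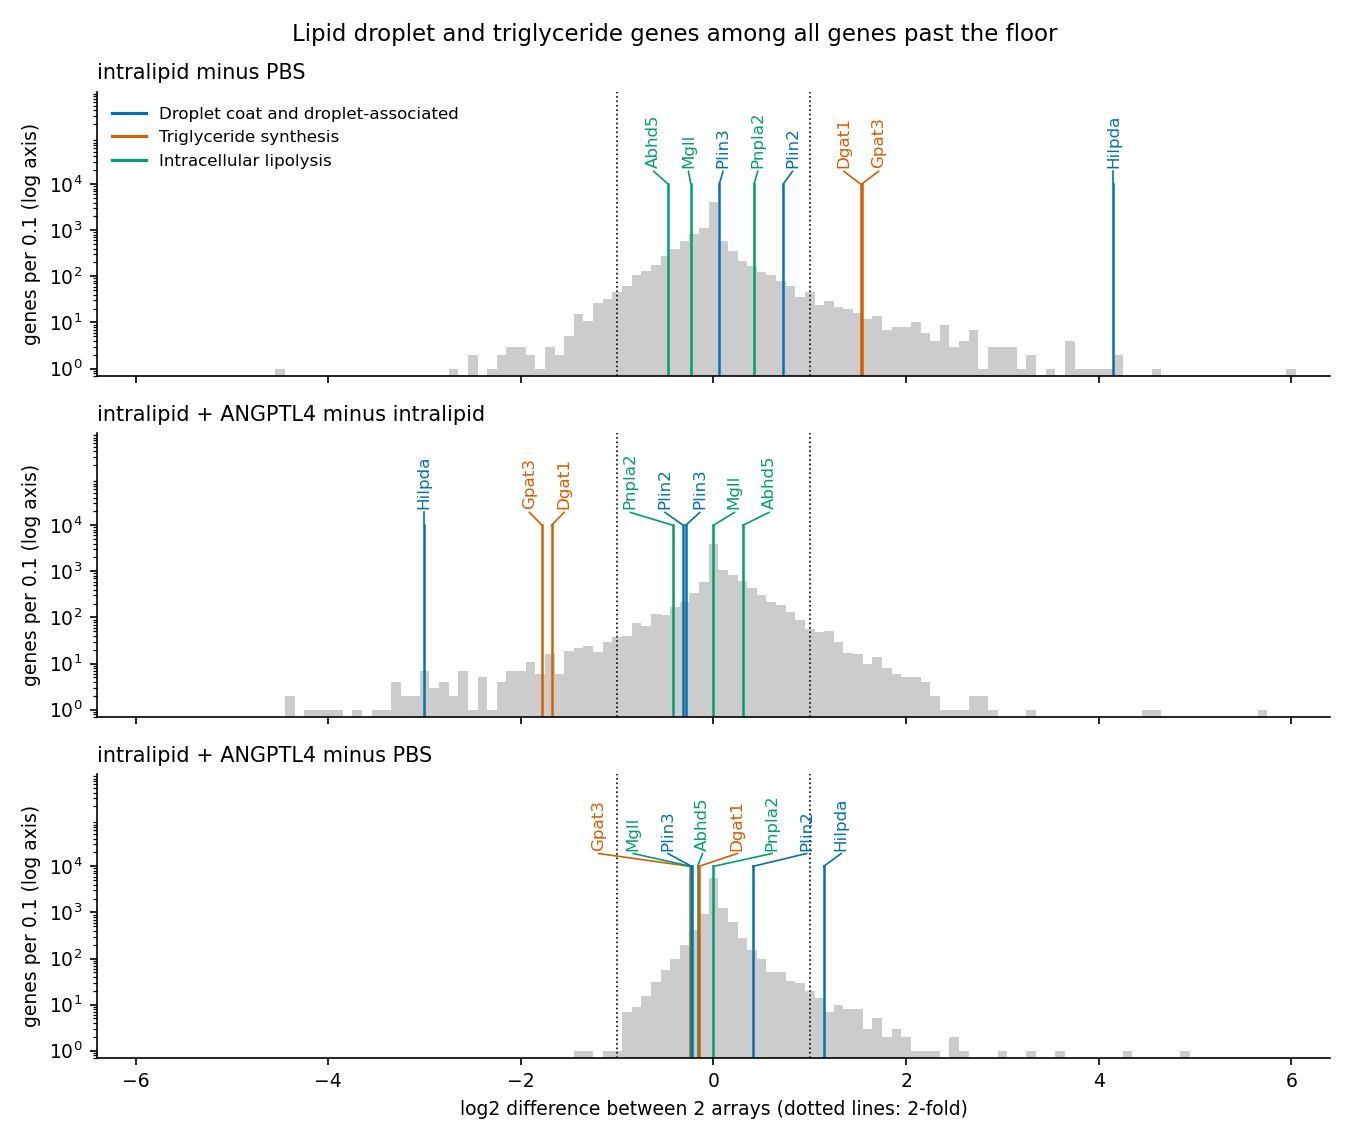
Histograms of the log2 difference between 2 arrays (horizontal axis, bins of 0.1) over all genes past the floor, with the number of genes on a log axis, for each of the 3 comparisons. Coloured lines mark the 8 genes past the floor by role and dotted lines mark 2-fold. Hilpda, Gpat3 and Dgat1 lie beyond the dotted lines in the upper panels, and Hilpda alone does so in the lowest panel.

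To see whether the pattern extended to the rest of the pathway, 74 further genes of droplets and glyceride metabolism were read, of which 67 had a probe set and 45 passed the floor. With intralipid against PBS, 0 of the 45 were at least 2-fold apart in either direction, where 3.83% of all genes were. Their median log2 difference was -0.02, with 13 higher, 25 lower and 7 identical. With ANGPTL4 against intralipid, 1 was at least 2-fold higher and 0 were lower, where 4.83% of all genes were apart, with a median of 0.01. With ANGPTL4 against PBS, 0 of 45 were apart, where 0.89% of all genes were, with a median of 0.00. The 45 differences between intralipid and PBS ran from -0.73 to 0.71 on the log2 scale, beside 1.54 for Gpat3 and 1.53 for Dgat1.

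The enzymes of the steps around Gpat3 and Dgat1 differed in direction. Gpam, the mitochondrial isoenzyme of the step that Gpat3 catalyses, had log2 values of 6.59, 5.86 and 6.59, 1.66-fold lower with intralipid than with PBS and with ANGPTL4. Gpat4, the other isoenzyme of the endoplasmic reticulum, was nearly level at 7.55, 7.41 and 7.56. Of the acyltransferases for the next step, Agpat4 had 6.81, 7.52 and 7.50, so that it was 1.64-fold higher with intralipid and 1.61-fold higher with ANGPTL4 than with PBS. The other enzymes of this step past the floor were not higher with intralipid than with PBS, with log2 differences of -0.02 for Agpat1, -0.25 for Agpat2, 0.00 for Agpat3 and -0.12 for Agpat5. The phosphatidate phosphatases, which make diacylglycerol, also parted: Lpin2 was 1.63-fold higher (7.72 with PBS and 8.42 with intralipid) and Lpin1 1.45-fold lower (7.70 and 7.17). With ANGPTL4, Lpin1 stayed at 7.13, 1.48-fold below PBS. Mogat1 and Mogat2, which make diacylglycerol from monoacylglycerol, lay below the floor on every array.

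The single further gene past 2-fold was Fabp3, a fatty acid binding protein known from heart and muscle. It had 6.29, 5.61 and 6.76, so that the ANGPTL4 array stood 2.22-fold above the intralipid array. A second probe set of Fabp3 gave 6.02, 5.42 and 6.77, a 2.54-fold difference. Fabp4, the binding protein of adipocytes and macrophages, ran the other way at 10.27, 10.58 and 9.63, 1.93-fold lower with ANGPTL4 than with intralipid. Dbi, which binds acyl-CoA, had 10.44, 11.14 and 10.36 and so was highest on the intralipid array. Acsl4, a fatty acid activating enzyme, was 1.49-fold higher with intralipid than with PBS, and Acsl1 had no probe set of its own in the annotation used.

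Other droplet and lipase genes were less than 2-fold apart in every comparison or lay below the floor. Lipa, the acid lipase of lysosomes, had 12.51, 12.38 and 12.51, and Lipe, which encodes hormone-sensitive lipase, differed by at most 1.03-fold. Fitm2, which partitions triglyceride into droplets, had 5.76 on each array. Ldah, a droplet-associated hydrolase, had 8.64, 8.07 and 8.57, 1.48-fold lower with intralipid than with PBS. Rab3gap2, a cofactor of the droplet GTPase RAB18, had 8.47, 9.02 and 8.27, while Rab18 had 8.84, 8.84 and 8.90. Plin1, Plin4, Plin5, Cidea, Cideb and Cidec, coat and fusion proteins best known from fat, muscle and liver, lay below the floor on all arrays. Soat1, which esterifies cholesterol, had no probe set of its own in the annotation used. Apart from Fabp3, Plin1, Cidec, Lipe, Soat1, Acsl1, Lipa and Fitm2, the further pathway genes named here were picked as examples after their values were seen.

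**Figure D4:**
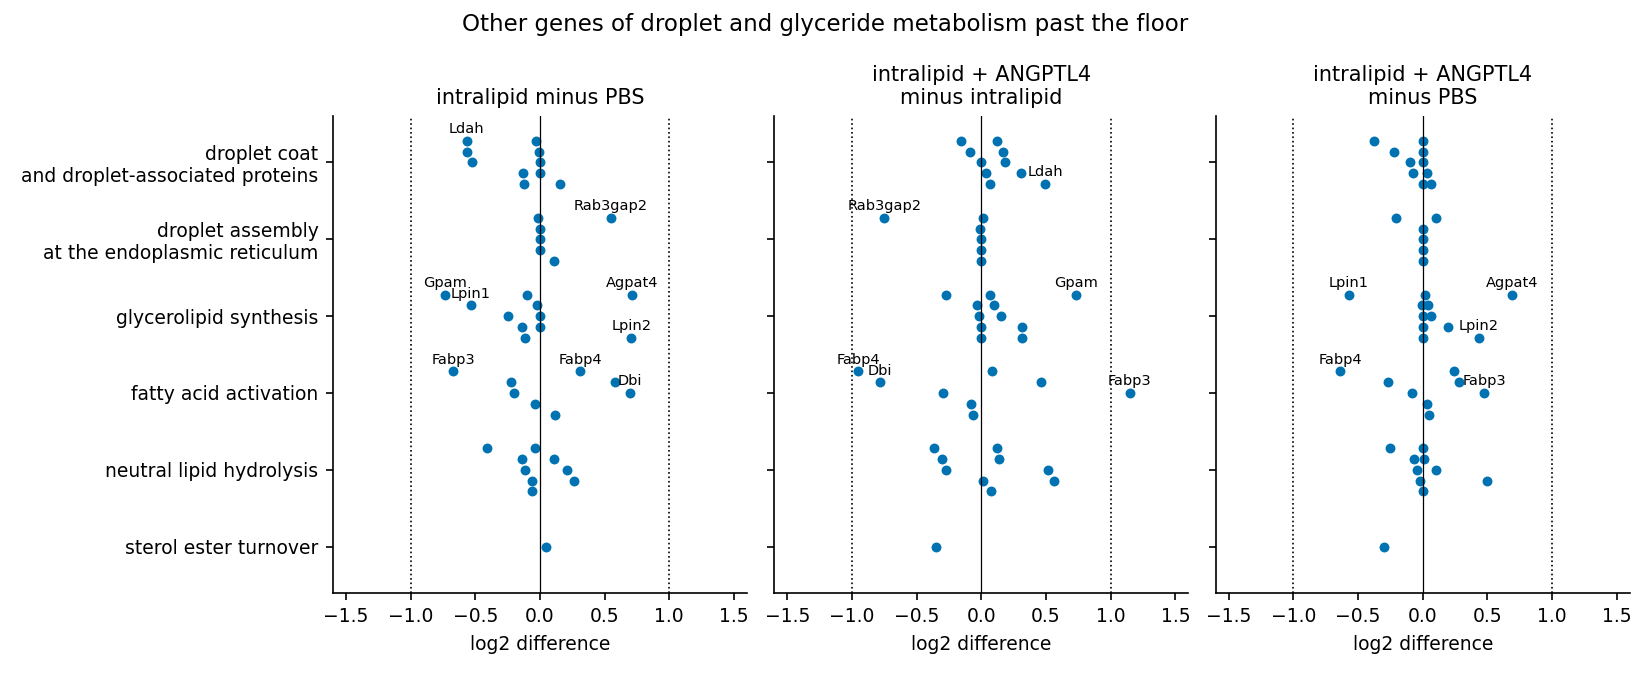
Log2 difference (horizontal axis) of each of the 45 further pathway genes past the floor in the 3 comparisons (panels), grouped by function (rows, with points spread vertically for legibility). Dotted lines mark 2-fold. All but Fabp3 in the middle panel lie inside them, with Gpam and Agpat4 on opposite sides of 0 in the left panel.

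Genes whose 3 values were most like those of the 3 called genes were found by the Euclidean distance between their pairs of log2 differences from PBS, over the 3 arrays and among 9708 genes past the floor. Nearest to Hilpda was Ptgs2, the inducible cyclooxygenase, at a distance of 0.47, with 5.72 on the PBS, 9.46 on the intralipid and 7.09 on the ANGPTL4 array. Ier3, Dusp1, Inhba and Tnfaip6 followed, at distances of 0.84 to 0.94. Nearest to Gpat3 were Lmnb1, Jun, Dgat1, Chd7 and Clec9a at 0.04 to 0.13. Nearest to Dgat1 were Clec9a, Chd7, Chac1, Lmnb1 and Gfpt1 at 0.05 to 0.09. Gpat3 and Dgat1 themselves were 0.09 apart. Clec9a, with 3.44, 5.00 and 3.32, and Tnfaip6, with 4.16, 7.86 and 4.48, exceeded the floor with just their intralipid value, so their distances rest on values below it. With 3 arrays many genes share a pattern, and a small distance says nothing of shared function or control.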

How the data were processed

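RNA of 3 samples per group was pooled, 100 ng was labelled, and each of 3 groups was hybridised to 1 array, per the labels' protocols. The deposited values are log2 expression per probe set, made by the authors with RMA, per the submitters' processing notes. This method corrects background, normalizes the arrays together and summarises probes. No version, chip definition or filter is given in the sources used here. Of 35556 probe sets, 21789 had 1 symbol in GEO's platform annotation, 1621 several and 12146 none. Genes were read from single-symbol probe sets, taking the one of highest mean over the arrays. Each of the 10 genes had 1 probe set. RMA's summary left 14722 probe sets (41.4%) identical on all 3 arrays, so an identical value does not show an unchanged transcript.

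Values were used without further normalization. Differences were called at 2-fold with the floor described in the report, and genes tested were those past the floor on at least 1 of the 2 arrays. No test, error or p-value is possible with 1 array per group, and the number of arrays limits the precision. The code that makes the calls was tested on simulated data with known differences, which says nothing of the error of these arrays. Alternatives were thresholds of 1.5-fold and 3-fold, no floor, a floor at percentile 75, median centring, quantile normalization, cyclic loess (limma 3.58.1, R 4.3.3) and the mean over probe sets. Other steps used Python 3.11.15 and pandas 2.3.3. The genes and lists were chosen with earlier results of these data known. The text names all 10 genes, pathway genes at least 2-fold apart in any comparison, Plin1, Cidec, Lipe, Soat1, Acsl1, Lipa and Fitm2 whatever their values, and the 5 genes nearest in pattern to each gene called between intralipid and PBS, leaving out symbols that end in Rik or start with Gm and digits, Mir, Snor, LOC or Olfr. Other pathway genes are examples picked after their values were seen. A planned comparison of the proteins was not made, since no protein table was at hand.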

Additional observations from a re-analysis of the deposited data

How the results depend on the processing

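Of 240 values of the 10 genes under 8 alternatives, 236 stayed on the same side of the threshold. Another 3 lost a call and 1 gained one. The 4 came from the fold threshold alone. Of the values called at 2-fold, 0 turned direction. Direction was not counted for uncalled values, and Mgll ranged from -0.058 to 0.0001 for ANGPTL4 against intralipid over the normalizations. The thresholds and floors could change calls but not values. The mean over probe sets could change neither, since each of the 10 genes had 1 probe set. The 236 therefore says little of how firm the values are. At 3-fold, Gpat3 and Dgat1 were no longer called between intralipid and PBS, which left 1 of the 10 genes (Hilpda), and Hilpda was not called between ANGPTL4 and PBS, which left 0. At 1.5-fold, Plin2 was called as higher with intralipid. Of the 45 further pathway genes past the floor, 5 were called at 1.5-fold for intralipid against PBS, 3 higher and 2 lower. Of all genes, 10.6% were called there. For ANGPTL4 against intralipid the pathway count was 5 of 45, 2 higher and 3 lower, beside 13.2% of all genes. For ANGPTL4 against PBS the pathway count was 2 of 45, 1 in each direction, beside 2.9% of all genes. Of 10049, 10064 and 9995 genes tested in these comparisons, 1069, 1329 and 290 were called at 1.5-fold. The counts were 137, 161 and 25 at 3-fold, against 385, 486 and 89 at 2-fold. For ANGPTL4 against intralipid the pathway count was 0 at 3-fold and 0 with the higher floor, which Fabp3 did not reach. Without a floor, the median difference of the 10 genes between intralipid and PBS was 0.24, since G0s2 and Dgat2 then entered at 0. Over the normalizations, Hilpda ranged from 4.12 to 4.16, Gpat3 from 1.50 to 1.55 and Dgat1 from 1.50 to 1.54 for intralipid against PBS on the log2 scale. No paired analysis was possible because each group had 1 array. No array could be left out for the same reason.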

Other observations

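The genes next to the 3 called genes on the chromosome were read after their values had been seen. Fam71f2, the next protein-coding gene after Hilpda in the RefSeq table and on the same strand, had log2 values of 5.30, 7.81 and 5.20 on the PBS, intralipid and ANGPTL4 arrays. It was 5.69-fold higher with intralipid than with PBS and 6.09-fold lower with ANGPTL4 than with intralipid, past the floor on all 3 arrays. Hilpda itself was 17.8-fold higher and 8.05-fold lower in these comparisons. Unlike Hilpda, which kept a 2.21-fold difference from PBS with ANGPTL4, Fam71f2 was 1.07-fold below PBS there. Whether its signal came from a transcript of its own or from RNA that begins at Hilpda was not tested. Impdh1, the measured gene before Hilpda and on the opposite strand, had 6.85, 7.11 and 6.85, and Fam71f1, the gene after Fam71f2, lay below the floor at 4.08 on each array.

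No measured neighbour of Gpat3 or Dgat1 was at least 2-fold apart. Mrps18c and Abraxas1 before Gpat3 differed by at most 1.21-fold, and Nkx6-1 after it lay below the floor. Scx and Scrt1, the measured genes beside Dgat1, lay below the floor with 1 value on all 3 arrays, and Hsf1 had no probe set of its own in the annotation used.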
